A study of Mus musculus with 21 samples.

Results

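Heat shock proteins and their co-chaperones were examined in mouse hindlimb muscle that lacked 3 FoxO transcription factors, with and without diabetes. The members were protein-coding genes whose symbols name the HSP70, HSP90, HSP110, HSP60/HSP10 and small heat shock protein families. Symbols of the DnaJ A, B and C families and of the BAG family were also taken. The symbol rule further took in Hspbp1, an HSP70 partner, and Hspbap1. Figures by family place these genes under the label HSP70 partner, which holds for Hspbp1 only. The endoplasmic reticulum chaperones Hspa5, Hsp90b1 and Dnajb9 and 10 pseudogenes were left out. The rule gave 76 genes of 46071 in the count table, of which 21596 were protein-coding. Of the 76 genes, 67 passed the filter on low counts. The other 9 were Dnajb3, Dnajb7, Dnajb8, Dnajb13, Dnajc5b, Dnajc5g, Dnajc6, Dnajc22 and Hspb9. Of those, Dnajc5b and Dnajc22 had 0 counts in all 21 libraries, which allows up to 0.39 to 1.02 CPM (counts per 1000000 counts) in a library when 3 counts is taken as the limit (counting error only).

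HSP70 chaperones bind unfolded stretches of a protein and release them in a cycle driven by ATP. DnaJ proteins (HSP40) bring substrates and trigger ATP hydrolysis, while BAG proteins and the HSP110 family exchange the nucleotide and so reset the cycle. HSP90 acts later on kinases, steroid receptors and muscle myosin, and small heat shock proteins hold unfolding proteins without using ATP. In muscle, Bag3 with Hspb8 and HSP70 delivers damaged filamin to autophagy. The transcription factor Hsf1 switches on the inducible members after heat or proteotoxic stress by binding heat shock elements.

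Quadriceps and gastrocnemius muscle, pooled and ground to a powder, gave the RNA for 21 libraries. There were 6 libraries from STZ-treated FoxO1/3/4 triple knockout muscle (STZ TKO, libraries 4, 8, 11, 12, 15 and 18) and 6 from triple knockout muscle without STZ (TKO, libraries 2, 6, 10, 13, 16 and 20). There were 5 from STZ-treated floxed muscle (STZ floxed, libraries 3, 7, 14, 17 and 21) and 4 from floxed muscle without STZ (floxed, libraries 1, 5, 9 and 19). Values by library are given in that order. All mice carried floxed Foxo1, Foxo3 and Foxo4 alleles on a mixed C57Blk6, C57Blk6J and 129 background, and floxed littermates were the controls. The knockout used Cre driven by the ACTA1 promoter, which is active in skeletal muscle fibres, so other cells of the tissue kept their FoxO genes. Streptozotocin (STZ), a toxin of insulin-producing beta cells, was injected at 150 mg/kg, and females received a further 75 mg/kg on day 3. A blood glucose over 300 mg/dL was required for a mouse to be used. The series describes citrate buffer as the control injection, and the libraries without STZ are labelled as having no drug. Age, and the sex of each library, were not given in the labels.

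Total counts were 2951290 to 7687823 per library. Foxo1 stood at 7.00 to 26.7 CPM in the 12 knockout libraries, against 36.4 to 113 CPM in the 9 floxed libraries. Foxo4 stood at 3.87 to 12.7 CPM in knockout libraries, against 124 to 201 CPM in floxed libraries. Foxo3 counts over the whole gene overlapped, at 73.7 to 233 CPM against 64.1 to 114 CPM, and so gave no check of its deletion. Skeletal muscle markers (Acta1, Ckm, Mb, Des, Ttn and Neb) were present in all groups. Several libraries stood apart. Libraries 4 and 15 (STZ TKO) and 16 and 20 (TKO) had summed macrophage markers of 1142 to 2509 CPM, and library 8 (STZ TKO) had 1067 CPM. Library 17 (STZ floxed) had the lowest summed skeletal muscle markers, 37946 CPM against 40666 to 84970 CPM in the other libraries. Its summed fast fibre markers were also the lowest, 60914 CPM against 74372 to 233458 CPM. Library 17 also held the highest value of 21 of the 67 tested chaperone genes (31.3%), whereas it held the highest value of 14.0% of all tested genes. Library 8 (STZ TKO) held the highest value of 14 of them (20.9%, against 12.3% of all tested genes).

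Promoter windows of 300 bases, reaching from 250 bases upstream to 50 bases downstream of an annotated start, were found in RefSeq (GRCm38.p6) for 61 of the 76 genes, in 79 windows. The core of the heat shock element, a pair of inverted units, was searched as GAANNTTC and TTCNNGAA. Each reads the same on both strands, and they can overlap each other. GAANNTTC was in 17 of 79 member windows (21.5%), against 7.86% of the 32851 windows in the table. Those 17 windows belonged to 15 genes, and some cover the same bases. Dnajb6 and Hsph1 each gave overlapping windows, and windows of Hspd1 and Hspe1 overlap. Such repeats were not removed from either share. TTCNNGAA was in 10.1% of member windows, against 8.52% of all windows. The FoxO core element, TGTTTAC or GTAAACA on the other strand, was in 3.8% of member windows (Dnajb12, Dnajc6 and Dnajc10), against 3.65% of all windows. The windows of the 4 genes that passed a test and of the twin of Hspa1b are printed 5′ to 3′ on the gene's strand, with searched motifs in capitals. Dnajc28 (minus strand, chr16:91618950-91619249) and Bag2 (minus strand, chr1:33757701-33758000) held none of these letters. Hspb3 (minus strand, chr13:113663627-113663926) held GAATTTTC from 224 bases upstream.
Dnajc28: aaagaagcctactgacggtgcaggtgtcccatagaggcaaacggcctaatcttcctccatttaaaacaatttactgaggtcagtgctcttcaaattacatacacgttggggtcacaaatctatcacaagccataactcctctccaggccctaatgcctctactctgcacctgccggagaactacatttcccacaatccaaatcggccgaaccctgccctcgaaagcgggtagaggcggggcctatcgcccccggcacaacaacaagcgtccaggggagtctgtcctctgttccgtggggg
Bag2: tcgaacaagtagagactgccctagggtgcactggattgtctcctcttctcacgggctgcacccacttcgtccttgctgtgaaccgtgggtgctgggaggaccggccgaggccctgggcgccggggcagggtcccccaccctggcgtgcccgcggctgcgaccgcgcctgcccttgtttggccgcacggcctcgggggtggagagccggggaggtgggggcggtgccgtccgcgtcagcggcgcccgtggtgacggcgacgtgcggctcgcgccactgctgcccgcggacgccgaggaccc
Hspb3: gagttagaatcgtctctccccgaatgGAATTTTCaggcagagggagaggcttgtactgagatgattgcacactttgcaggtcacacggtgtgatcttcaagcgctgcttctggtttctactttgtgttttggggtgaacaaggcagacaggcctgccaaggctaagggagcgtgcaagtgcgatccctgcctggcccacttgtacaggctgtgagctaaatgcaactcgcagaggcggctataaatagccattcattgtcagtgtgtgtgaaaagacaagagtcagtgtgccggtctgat
Hspa1b (minus strand, chr17:34959189-34959488) and Hspa1a (minus strand, chr17:34972107-34972406) each held GAAGATTC from 104 bases upstream, and their windows differed at 4 of 300 bases. The differences were C44T, T47C, T249G and C276T, with the Hspa1a base first and positions counted from 1 at the 5′ end of the window.
Hspa1b: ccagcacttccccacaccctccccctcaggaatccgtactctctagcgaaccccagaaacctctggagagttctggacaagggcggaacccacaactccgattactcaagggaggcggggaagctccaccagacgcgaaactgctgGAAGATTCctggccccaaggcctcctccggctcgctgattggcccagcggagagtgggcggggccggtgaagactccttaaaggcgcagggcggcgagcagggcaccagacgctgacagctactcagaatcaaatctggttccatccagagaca
Hspa1a: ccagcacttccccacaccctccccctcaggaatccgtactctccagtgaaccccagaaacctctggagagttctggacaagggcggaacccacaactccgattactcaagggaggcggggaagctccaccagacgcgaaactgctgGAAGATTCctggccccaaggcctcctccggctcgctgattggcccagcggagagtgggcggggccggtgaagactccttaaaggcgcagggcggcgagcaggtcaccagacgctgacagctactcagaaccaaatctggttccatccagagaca
Other windows with heat shock elements included those of Hspb1, Hspb6, Hspb8, Hsph1, Bag3, Dnaja1, Dnaja4, Dnajb4 and Dnajb6. A window of Hspd1 and that of its divergent neighbour Hspe1 share 285 bases, in which GAANNTTC lies between a pair of TTCNNGAA matches.

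The chaperone genes together took 0.586 to 1.05% of the counts of a library. The mean share was 0.696 ± 0.0571% in STZ TKO (SD, n = 6), 0.704 ± 0.0716% in TKO (n = 6), 0.722 ± 0.188% in STZ floxed (n = 5) and 0.637 ± 0.0196% in floxed libraries (n = 4). The highest share, 1.05%, was that of library 17. Levels between genes were compared as mean CPM per kilobase of annotated exon over the 21 libraries. Hsp90ab1, the constitutive cytosolic HSP90, was highest at 328 CPM per kilobase. Next came the small heat shock proteins Hspb6 (246) and Hspb8 (236). They were followed by the constitutive HSP70 Hspa8 (146), the mitochondrial HSP70 Hspa9 (142) and the muscle-enriched Hspb7 (138). Those 6 genes held 52.3% of the summed CPM of all members. Near the other end, the stress-inducible Hspa1a and Hspa1b stood at 1.88 and 1.62 CPM per kilobase. Within-group spread (SD of log2 CPM) was widest for Hspa1a (0.86), Dnajc15 (0.83) and Hspb1 (0.83), and 0.18 for the mitochondrial DnaJ protein Dnaja3. Neighbours in the order such as Hspa8, Hspa9 and Hspb7 overlapped across libraries.

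**Figure D1:**
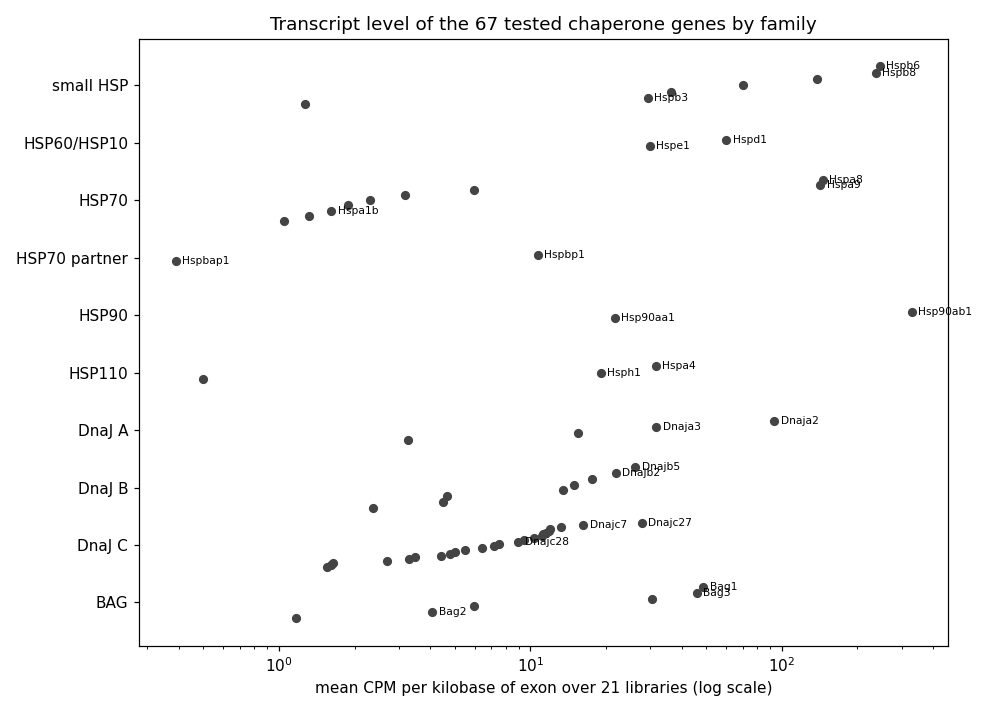
Mean CPM per kilobase of exon over 21 libraries (log axis) for the 67 tested chaperone genes, 1 point per gene, by family. Hsp90ab1 (328), Hspb6 (246) and Hspb8 (236) lie furthest right, and Hspa1b lies at 1.62.

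Few chaperone transcripts differed between groups. Tests were edgeR quasi-likelihood tests over 12658 genes with Benjamini-Hochberg adjustment, and a gene was called at an adjusted p under 0.05. In STZ TKO against STZ floxed muscle, Bag2 and Hspb3 rose and Dnajc28 fell, 3 of 67 (4.48%), where 4.89% of all tested genes were called (2.47% higher and 2.42% lower). In STZ floxed against floxed muscle, Hspa1b rose and Bag2 fell, 2 of 67 (2.99%), where 1.35% of all tested genes were called (0.498% higher and 0.853% lower). In TKO against floxed muscle edgeR called 0 members, where it called 0.514% of all tested genes. DESeq2 called 1 there, Dnajc28 (2.77% of all tested genes), and 5 members had an unadjusted p under 0.05 (11.5% of all tested genes). In STZ TKO against TKO muscle edgeR called 0 members (0.142% of all tested genes), DESeq2 called 1, Dnajb4 (0.877%), and 4 had an unadjusted p under 0.05 (11.3%). The interaction, the difference between the STZ effects of the genotypes, was called by edgeR in 0 members (0.0079% of all tested genes) and by DESeq2 in 0 (0.0316%), and 2 members had an unadjusted p under 0.05 (3.89%). In the first comparison DESeq2 called 4 members (7.99% of all tested genes), adding Dnajb12, and in STZ floxed against floxed muscle it called the same 2 (3.36%).

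The members as a whole lay near no change. Their median log2 fold change was -0.07 in STZ TKO over STZ floxed (0.03 over all tested genes), with 38 of 67 below 0 (46.4% of all tested genes). It was -0.06 in TKO over floxed (0.00 over all), with 40 below 0 (49.5% of all). It was -0.03 in STZ TKO over TKO (0.01 over all), with 36 below 0 (48.8% of all). It was 0.04 in STZ floxed over floxed (0.02 over all), with 31 below 0 (48.4% of all). A log2 fold change between -0.5 and 0.5 was found for 53 to 60 of 67 members in each of these 4 comparisons. The same held for 9357 to 10434 of the 12658 tested genes, so small changes were common among all genes. Unadjusted p-values under 0.05 were found for 12 members under STZ between genotypes (17.9%, against 18.7% of all tested genes), and for 10 in STZ floxed against floxed muscle (14.9%, against 14.4%). Comparisons share libraries (STZ TKO, STZ floxed, TKO and floxed each enter more than 1), so their values are not independent of each other.

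**Figure D2:**
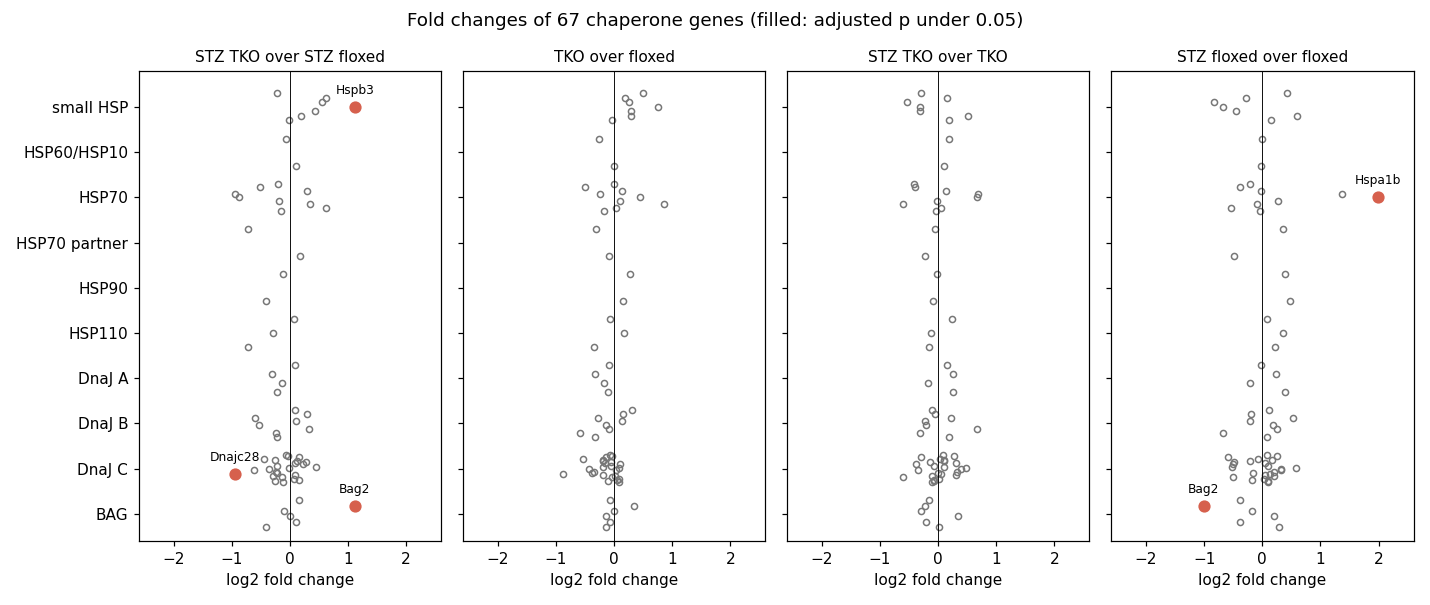
Log2 fold change of the 67 tested chaperone genes by family in 4 comparisons, with filled red points for an adjusted p under 0.05 (edgeR). Red points are Hspb3, Bag2 and Dnajc28 in STZ TKO over STZ floxed, and Hspa1b and Bag2 in STZ floxed over floxed.

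In the HSP70 family, the stress-inducible Hspa1b was higher in STZ floxed than in floxed muscle. Hspa1b (Ensembl ENSMUSG00000090877, chr17:34956436-34959238, minus strand, GRCm38) had 10.9, 2.27, 7.8, 11.6 and 9.1 CPM in STZ floxed libraries 3, 7, 14, 17 and 21, against 2.65, 2.51, 1.38 and 1.97 CPM in floxed libraries 1, 5, 9 and 19. Library 7 lay among the floxed values and the other 4 STZ floxed libraries lay above all of them. The rise was 1.99 ± 0.43 log2 units (adjusted p = 0.0217, edgeR quasi-likelihood test), on 8.35 ± 3.72 CPM in STZ floxed and 2.12 ± 0.577 CPM in floxed libraries. The call was lost without library 1, 5, 9, 17 or 19, with adjusted p-values of 0.0533 to 0.0802. In knockout muscle Hspa1b had 5.68, 4.25, 6.98, 5.64, 2.92 and 2.27 CPM in STZ TKO libraries, against 3.3, 1.84, 2.09, 5.6, 2.35 and 2.04 CPM in TKO libraries, and those ranges overlapped. Its log2 difference there was 0.67 ± 0.36 (adjusted p = 0.482, edgeR), and the interaction was -1.32 ± 0.56 (adjusted p = 0.9996, unadjusted 0.026), so the STZ effects were not shown to differ. STZ TKO over STZ floxed was -0.87 ± 0.35 (adjusted p = 0.168, edgeR).

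Hspa1a (chr17:34969190-34972156, minus strand), the neighbour of Hspa1b, is nearly identical to it. Of the 50-base stretches in Hspa1b transcripts, 62.3% also occur in Hspa1a, and 58.8% of those in Hspa1a occur in Hspa1b, so reads could be split or lost between them. Hspa1a had 14.9, 5.5, 8.97, 11.1 and 9.41 CPM in STZ floxed libraries, against 4.04, 5.57, 2.76 and 3.4 CPM in floxed libraries. The lowest STZ floxed value, 5.5 CPM, lay just under the highest floxed value, 5.57 CPM. Its log2 fold change was 1.37 ± 0.51 and missed the threshold (adjusted p = 0.204, edgeR). With the counts of both genes summed, an alternative chosen after seeing the data, the log2 fold change was 1.62 with an adjusted p of 0.0592. In knockout muscle Hspa1a ranged over 0.809 to 7 CPM (median 5.84) with STZ and 0.894 to 6.5 CPM (median 3.05) without STZ. In STZ TKO over STZ floxed muscle its log2 fold change was -0.94 ± 0.44 (adjusted p = 0.244).

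Immediate early genes (Fos, Fosb, Jun, Junb, Egr1, Atf3 and Ier2), markers of recent stimulation and of tissue handling, had 7 of 7 genes with counts. They summed to 139 to 672 CPM in STZ floxed libraries, with the highest in library 17, and to 96.1 to 202 CPM in floxed libraries. They summed to 153 to 288 CPM in STZ TKO and 97.8 to 266 CPM in TKO libraries. No gene of the 7 was called by edgeR or DESeq2 in STZ floxed against floxed muscle, and 2 had an unadjusted p under 0.05 (14.4% of all tested genes). All 7 had a log2 fold change above 0 there (median 1.04), against 51.6% of all tested genes. In STZ TKO over TKO muscle all 7 were also above 0 (median 0.70), against 51.2% of all tested genes, with 0 calls. The part of the immediate early genes in the Hspa1b difference was not tested.

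Hspa8, the abundant HSP70 that uncoats clathrin and selects proteins for chaperone-mediated autophagy, had 660.0, 433, 383, 424 and 382 CPM in STZ floxed libraries. It had 439 to 1041 CPM (median 705) in STZ TKO, 556 to 912 CPM (median 662) in TKO and 543 to 775 CPM (median 662) in floxed libraries. Library 3 stood above the other 4 STZ floxed libraries, and the groups overlapped. The log2 fold change was 0.61 ± 0.21 in STZ TKO over STZ floxed (adjusted p = 0.105, edgeR) and -0.53 ± 0.23 in STZ floxed over floxed (adjusted p = 0.292). Without library 3 the difference between genotypes under STZ was called, at 0.79 (adjusted p = 0.0451), and likewise without libraries 4, 15, 16 and 20, at 0.83 (adjusted p = 0.0378). Hspa2, an HSP70 best known from male germ cells, had 6.59, 6.27, 5.36, 4.15, 3.29 and 4.36 CPM in TKO libraries, against 3.06, 3.06, 1.55 and 3.22 CPM in floxed libraries, with no overlap. That difference was 0.85 ± 0.29 log2 units (adjusted p = 0.187, edgeR). The mitochondrial HSP70 Hspa9, which also drives protein import, stood at 439.8 to 677 CPM (median 596) in STZ TKO, 449.9 to 703 CPM (median 616) in TKO, 521 to 837 CPM (median 651) in STZ floxed and 589 to 790.4 CPM (median 638) in floxed libraries. Hspa1l and Hspa12a overlapped between groups in each comparison, and neither was called.

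The HSP90 genes, which were not called, overlapped between groups. Hsp90ab1 had 1091, 1106, 812, 1661 and 1349 CPM in STZ floxed libraries and 955, 1085, 818 and 586 CPM in floxed libraries. The log2 fold change there was 0.48 ± 0.26 (adjusted p = 0.396, edgeR). STZ TKO libraries ranged over 684 to 1185 CPM (median 878) and TKO libraries over 709 to 1490.0 CPM (median 839.9), with TKO library 6 and STZ floxed library 17 the highest of all. In STZ TKO over STZ floxed muscle Hsp90ab1 was at -0.41 ± 0.23 (adjusted p = 0.358). The inducible Hsp90aa1 stood at 62.5 to 127 CPM (median 81.7) in STZ TKO, 61.1 to 143 CPM (median 78.5) in TKO, 48.2 to 170.1 CPM (median 83.8) in STZ floxed and 57.4 to 86.1 CPM (median 72.3) in floxed libraries. Its difference between STZ floxed and floxed muscle was 0.38 ± 0.29 (adjusted p = 0.576), and no comparison separated its groups.

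Hsph1, the inducible HSP110 nucleotide exchange factor, had 122, 71.9, 148, 418 and 144 CPM in STZ floxed libraries, of which library 17 at 418 CPM exceeded every other library. It ranged over 88.4 to 142 CPM (median 102) in STZ TKO libraries, and its log2 fold change over STZ floxed was -0.72 ± 0.30 (adjusted p = 0.186, edgeR). With 1 library left out, that fold change ranged from -0.923 to -0.155 (adjusted p = 0.0719 to 0.775, edgeR). Hsph1 stood at 77 to 163 CPM (median 131) in TKO libraries and 138 to 166 CPM (median 159) in floxed libraries. Hspa4, the other well expressed HSP110 gene, stayed within 152 to 241 CPM in STZ TKO, 143 to 181 CPM in TKO, 149.6 to 254 CPM in STZ floxed and 155 to 177 CPM in floxed libraries. The mitochondrial chaperonin pair, Hspd1 (HSP60) and its lid Hspe1 (HSP10), had log2 fold changes between -0.26 and 0.19 in the 4 pairwise comparisons. Their genes overlap head to head on opposite strands, and whether the counting used strand is not given in the sources used here. Hspd1 averaged 161 ± 31.7 CPM in STZ TKO, 142 ± 13.5 CPM in TKO, 169 ± 34.8 CPM in STZ floxed and 170.1 ± 21 CPM in floxed libraries (SD, n = 6, 6, 5 and 4).

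Among the small heat shock proteins, Hspb3 was higher in knockout muscle under STZ. Hspb3, which pairs with Hspb2 in muscle cells, lies at chr13:113662896-113663676 on the minus strand. It had 18.5, 53.4, 19.9, 27.5, 22.4 and 14.4 CPM in STZ TKO libraries 4, 8, 11, 12, 15 and 18, against 15.9, 15.9, 11.2, 6 and 10.5 CPM in STZ floxed libraries. Library 8 was far above the rest, and library 18 (14.4 CPM) lay within the STZ floxed range. Hspb3 rose by 1.12 ± 0.28 log2 units (adjusted p = 0.0213, edgeR), on 26 ± 14.1 CPM in STZ TKO and 11.9 ± 4.16 CPM in STZ floxed libraries. The call was lost without library 14, 17 or 21 (adjusted p = 0.0504, 0.0571 and 0.0672). Without STZ the libraries did not overlap, with 32.1, 36.5, 24.7, 31.4, 30.4 and 36.1 CPM in TKO libraries, against 22.3, 18.7, 14.8 and 19.5 CPM in floxed libraries. That difference of 0.76 ± 0.30 missed the threshold (adjusted p = 0.271). The STZ effect was -0.31 ± 0.26 in knockout muscle (adjusted p = 0.649) and -0.67 ± 0.31 in floxed muscle (adjusted p = 0.313), and the interaction was 0.37 ± 0.40 (adjusted p = 0.9996).

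The 7 tested genes with small heat shock protein symbols were Hspb1, Hspb2, Hspb3, Hspb6, Hspb7, Hspb8 and Hspb11. Membership was by symbol alone, so Hspb11 was counted and Cryab was not. Of the 7, 2 lay below 0 in STZ TKO over STZ floxed (46.4% of all tested genes), with a median log2 fold change of 0.43. In TKO over floxed 1 lay below 0 (49.5% of all tested genes), with a median of 0.29. Hspb3 was the single call. Hspb6 (HSP20), a partner of actin-binding proteins, had 484, 412, 453, 420.5 and 304 CPM in STZ floxed libraries, against 603, 589, 540.0 and 538 CPM in floxed libraries, with no overlap. The log2 difference was -0.45 ± 0.25 (adjusted p = 0.414, edgeR). In knockout muscle Hspb6 stood at 437 to 799 CPM (median 471) with STZ and 439.9 to 987 CPM (median 675) without STZ, where TKO libraries 2, 6 and 10 were the highest of all 21. Hspb2 had 12 to 62.2 CPM (median 23.6) in STZ TKO, 23.6 to 70.4 CPM (median 36.4) in TKO, 11.4 to 30.9 CPM (median 17.6) in STZ floxed and 16.5 to 45.9 CPM (median 36) in floxed libraries. Hspb2 overlaps Cryab on the opposite strand, and Cryab averaged 507 CPM over all libraries against 30.3 CPM for Hspb2.

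Hspb1 (HSP25 in mice), Hspb7 and Hspb8 overlapped between the groups of each comparison. Hspb1 ranged over 29.7 to 156 CPM (median 54.2) in STZ TKO, 26.4 to 133 CPM (median 96.1) in TKO, 32.4 to 143 CPM (median 85.9) in STZ floxed and 44 to 75.7 CPM (median 56.6) in floxed libraries. Hspb7 ranged over 228 to 857 CPM (median 352) in STZ TKO, 153 to 528 CPM (median 328) in TKO, 222 to 789 CPM (median 359) in STZ floxed and 179 to 371 CPM (median 274) in floxed libraries. Its log2 fold change was 0.51 ± 0.38 in STZ TKO over TKO (adjusted p = 0.605) and 0.60 ± 0.44 in STZ floxed over floxed (adjusted p = 0.558, edgeR). Hspb8, the partner of Bag3, stood at 982 CPM in STZ floxed library 17 and at 261 to 592 CPM in the other 20 libraries.

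**Figure D3:**
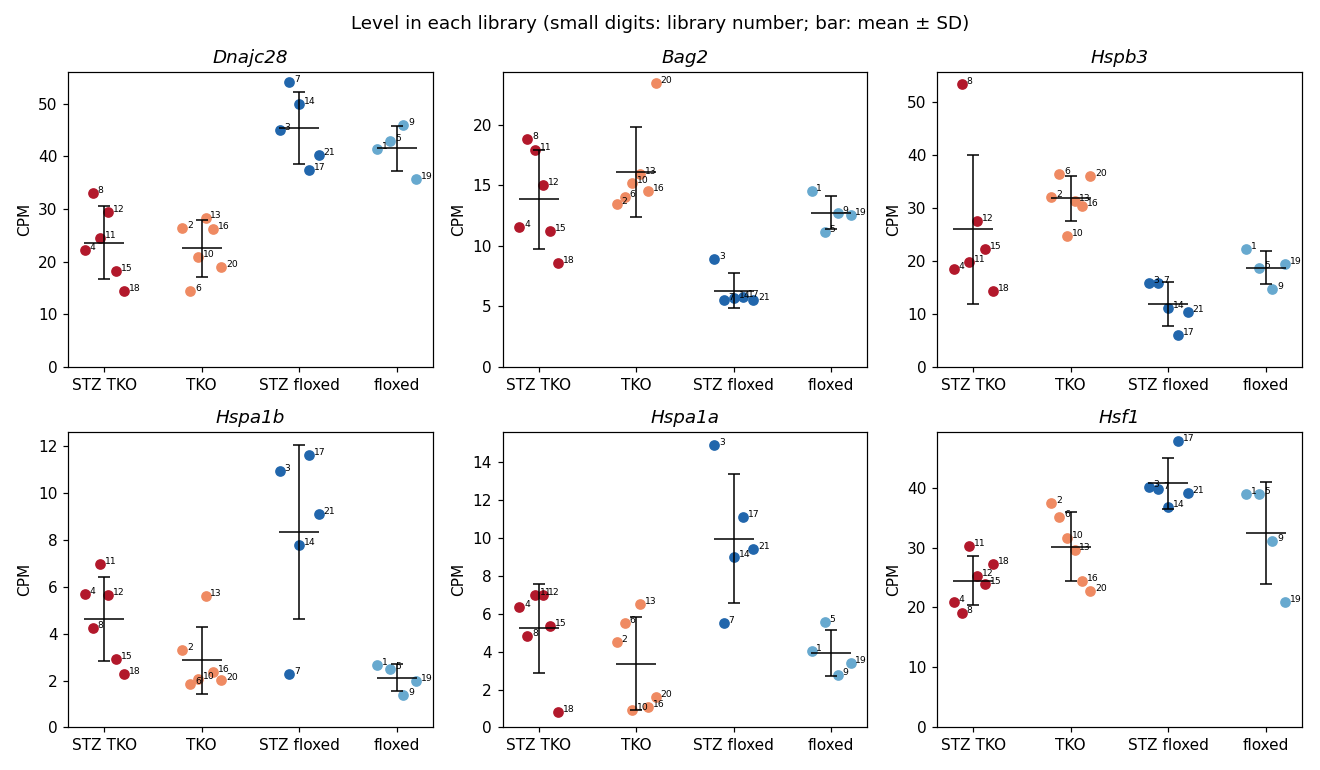
CPM in each library for Dnajc28, Bag2, Hspb3, Hspa1b, Hspa1a and the heat shock factor Hsf1, with points numbered by library and bars for the group mean ± SD. Dnajc28 lies at or below 33.1 CPM in all 12 knockout libraries and at or above 35.8 CPM in all 9 floxed libraries.

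Dnajc28 of the DnaJ C family was lower in knockout muscle under STZ. Dnajc28, a J-domain gene whose function is little studied, lies at chr16:91614254-91619026 on the minus strand (Ensembl ENSMUSG00000039763). It had 22.3, 33.1, 24.5, 29.4, 18.2 and 14.4 CPM in STZ TKO libraries, against 45.1, 54.1, 49.9, 37.4 and 40.3 CPM in STZ floxed libraries. It had 26.4, 14.4, 20.9, 28.3, 26.3 and 19 CPM in TKO libraries, against 41.5, 42.9, 46 and 35.8 CPM in floxed libraries. No knockout library reached the lowest floxed library, with or without STZ. Dnajc28 fell by 0.94 ± 0.20 log2 units under STZ (adjusted p = 0.00659, edgeR). This call was kept in all 27 alternative settings, with adjusted p-values of 0.000189 to 0.0498, the highest just under the threshold. Without STZ the log2 fold change was -0.87 ± 0.21, which missed the threshold (adjusted p = 0.0626). DESeq2 called that difference (adjusted p = 0.00878), as did edgeR without library 8, 13 or 18 (adjusted p = 0.0384, 0.0445 and 0.0379) and without libraries 17 and 18 (0.0265). The interaction of Dnajc28 with STZ was -0.07 log2 units, and its means were 23.6 ± 6.92 CPM in STZ TKO, 22.5 ± 5.37 CPM in TKO, 45.4 ± 6.81 CPM in STZ floxed and 41.5 ± 4.27 CPM in floxed libraries.

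Of the 24 DnaJ C genes tested, 15 were below 0 in STZ TKO over STZ floxed (46.4% of all tested genes), with a median of -0.10. In TKO over floxed 17 were below 0 (49.5% of all tested genes), with a median of -0.08. Dnajc12, a co-chaperone of aromatic amino acid hydroxylases, had 15.3, 14.4, 16.7, 10.8, 12.2 and 9.6 CPM in TKO libraries, against 17.1, 17.8, 22.9 and 17.7 CPM in floxed libraries, with no overlap. The log2 difference was -0.53 ± 0.26 (adjusted p = 0.452, edgeR). Under STZ it was -0.44 ± 0.25 (adjusted p = 0.363), on 8.18 to 26.4 CPM (median 11.1) in STZ TKO and 13.4 to 24.6 CPM (median 17.6) in STZ floxed libraries. Without STZ TKO library 8, at 26.4 CPM the highest of its group, that difference was -0.72 with an adjusted p of 0.0375. Dnajc19, part of the import motor of the inner mitochondrial membrane, stood at 46.1 CPM in library 8 and at 7.09 to 29.3 CPM elsewhere. It overlaps the highly expressed gene Fxr1 on the opposite strand.

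In the DnaJ B family, which includes the canonical partners of HSP70, no gene was called by edgeR with all libraries and no block. DESeq2 called Dnajb4 in STZ TKO over TKO and Dnajb12 in STZ TKO over STZ floxed. Dnajb4 had 129, 277, 213, 199.7, 164 and 209 CPM in STZ TKO libraries, against 122, 104, 150.2, 139, 129 and 103 CPM in TKO libraries. Library 4 lay within the TKO range, and the other 5 STZ TKO libraries lay above it. The log2 fold change was 0.67 ± 0.18, with an adjusted p of 0.17 in edgeR and 0.0444 in DESeq2. In floxed muscle Dnajb4 ranged over 122 to 199.8 CPM (median 148) with STZ and 87.7 to 158 CPM (median 141) without. Dnajb12, a membrane-anchored J protein of the endoplasmic reticulum that was named after its values were seen, had 57 to 89.6 CPM in STZ floxed libraries, above all floxed libraries at 43.5 to 53.5 CPM. In STZ TKO libraries it stood at 29.4 to 67.2 CPM, a log2 fold change of -0.59 ± 0.20 over STZ floxed with an adjusted p of 0.0855 in edgeR and 0.0491 in DESeq2. In edgeR, Dnajb12 was called there with the runs of library codes as a block (-0.71, adjusted p = 0.0276) and without library 18 (-0.73, adjusted p = 0.0263).

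Dnajb5, a J protein known for binding class II histone deacetylases in heart muscle, had 162, 165, 169.6, 186, 132 and 91.3 CPM in TKO libraries, against 202, 290.1, 231 and 188 CPM in floxed libraries. All 6 TKO libraries lay below the floxed ones, but the log2 fold change of -0.59 ± 0.22 missed the threshold (adjusted p = 0.236, edgeR). STZ floxed libraries had 203, 141, 149, 88.5 and 132 CPM, a log2 fold change of -0.67 ± 0.23 over floxed (adjusted p = 0.154). Dnajb2, which couples clients to the proteasome, had 67.6 to 91.1 CPM (median 75.9) in STZ TKO and 84.8 to 169.8 CPM (median 95.8) in STZ floxed libraries. Its log2 fold change was -0.54 ± 0.18 (adjusted p = 0.0972), with library 17 the highest at 169.8 CPM. The inducible Dnajb1, the textbook HSP40, overlapped between all groups at 7.4 to 27.3 CPM. Dnajb6, whose human gene is mutated in a limb-girdle muscular dystrophy, stayed within 19.5 to 34.6 CPM. All 4 DnaJ A genes had log2 fold changes between -0.32 and 0.38 in the pairwise comparisons, with 0 calls by edgeR or DESeq2 and 0 unadjusted p-values under 0.05.

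Among the BAG co-chaperones, Bag2 was lower in STZ floxed muscle than in floxed muscle, and higher in STZ TKO muscle than in STZ floxed muscle. Bag2, an inhibitor of the chaperone-linked ubiquitin ligase Stub1, lies at chr1:33745484-33757795 on the minus strand (Ensembl ENSMUSG00000042215). It had 8.9, 5.5, 5.72, 5.82 and 5.55 CPM in STZ floxed libraries, against 14.5, 11.1, 12.7 and 12.5 CPM in floxed libraries, with no overlap. Bag2 fell by 1.01 ± 0.24 log2 units in STZ floxed muscle (adjusted p = 0.0351, edgeR), on 6.3 ± 1.46 CPM in STZ floxed and 12.7 ± 1.37 CPM in floxed libraries. This call was lost in 11 of 27 settings, among them the runs of library codes as a block (adjusted p = 0.0828) and the removal of library 1, 5, 7, 9, 14, 17, 19 or 21 (0.0634 to 0.131).

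STZ TKO libraries had 11.5, 18.8, 17.9, 15, 11.2 and 8.58 CPM of Bag2, and only library 18 lay below STZ floxed library 3. Bag2 rose by 1.12 ± 0.22 log2 units in STZ TKO over STZ floxed muscle (adjusted p = 0.00373, edgeR), a call kept in all 27 settings with adjusted p-values of 0.000179 to 0.0159. TKO libraries had 13.5, 14, 15.2, 15.9, 14.5 and 23.4 CPM, with library 20 the highest of all 21. The log2 fold change was 0.34 ± 0.23 in TKO over floxed (adjusted p = 0.642) and -0.23 ± 0.20 in STZ TKO over TKO (adjusted p = 0.653). The interaction was 0.77 ± 0.31 with an unadjusted p of 0.0203 and an adjusted p of 0.9996, so a difference between the STZ effects of the genotypes was not shown. The 2 calls of Bag2 share the STZ floxed libraries.

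The other BAG genes were not called. Bag3, the muscle co-chaperone of filamin turnover, ranged over 53.7 to 144 CPM (median 108) in STZ TKO, 97 to 174 CPM (median 127) in TKO, 85.1 to 153 CPM (median 105) in STZ floxed and 85.8 to 179.6 CPM (median 123) in floxed libraries. Bag6, which escorts membrane proteins and defective products in the cytosol, had 179, 109, 182, 172, 188 and 204 CPM in STZ TKO libraries, against 221, 237, 225, 259 and 204 CPM in STZ floxed libraries. The highest STZ TKO library, 18, lay just below the lowest STZ floxed library, 21, both near 204 CPM. The log2 difference was -0.41 ± 0.17 (adjusted p = 0.182, edgeR). Bag1, which links HSP70 to the proteasome, stood at 109 CPM in library 8 and 132 CPM in library 6, and at 36.5 to 86.9 CPM in the other 19 libraries. Bag4 and Bag5 overlapped between all groups.

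Groups whose libraries did not overlap were counted over all members. There were 2 in STZ TKO against STZ floxed (Bag6 and Dnajc28), or 2.99%, against 3.74% of all tested genes. There were 5 in TKO against floxed (Dnajb5, Dnajc12 and Dnajc28 lower, Hspa2 and Hspb3 higher), or 7.46%, against 4.97%. There were 0 in STZ TKO against TKO, against 0.624%. There were 3 in STZ floxed against floxed (Bag2 and Hspb6 lower, Dnajb12 higher), or 4.48%, against 8.79%. These shares lay near or below the share of all tested genes except in TKO against floxed muscle, and that excess was not tested.

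The factors and partners that work with these chaperones were examined as lists. A list of 5 genes held the heat shock factors Hsf1, Hsf2, Hsf4 and Hsf5 and the heat shock factor binding protein Hsbp1. Of these, 4 were tested. Hsf1 was called in STZ TKO against STZ floxed muscle, 1 of 4 where 4.89% of all tested genes were called. Hsf1, the main activator of the heat shock response, had 21, 19.1, 30.3, 25.3, 23.8 and 27.2 CPM of its transcript in STZ TKO libraries, against 40.1, 39.8, 36.7, 47.8 and 39 CPM in STZ floxed libraries, with no overlap. It fell by 0.73 ± 0.18 log2 units (adjusted p = 0.0168, edgeR). Without libraries 4, 15, 16 and 20 the log2 fold change was -0.67 with an adjusted p of 0.0698. TKO libraries ranged over 22.8 to 37.5 CPM (median 30.6) and floxed libraries over 20.9 to 39 CPM (median 34.9), which overlapped. Hsf2 and Hsf4 were not called.

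Of 25 partners of HSP90 and HSP70, 24 were tested, and Sugt1 was the 1 call, in the same comparison, a share of 4.17% against 4.89% of all tested genes. Sugt1, an adaptor between HSP90 and ubiquitin ligases, had 50, 63.4, 49.1, 62.5, 57.9 and 69.4 CPM in STZ TKO libraries, against 78.5, 81.6, 127, 102 and 121 CPM in STZ floxed libraries, with no overlap. It fell by 0.80 ± 0.22 log2 units (adjusted p = 0.0331, edgeR), a call lost in 6 of 27 settings, with the highest adjusted p, 0.135, without libraries 4, 15, 16 and 20. TKO libraries had 37.5, 23.6, 54.8, 70.0, 54.8 and 51.9 CPM, and floxed libraries 63.1, 57.1, 94.6 and 91.2 CPM. The Hsp90 partners Stip1, Ahsa1, Fkbp4 and Chordc1 and the myosin chaperone Unc45b were not called in any comparison. Of the chaperonin TRiC and prefoldin (14 genes), mitochondrial partners (9) and chaperone-assisted autophagy (6), edgeR called 0 in any comparison, against 0.0079 to 4.89% of all tested genes, with 1, 1 and 2 unadjusted p-values under 0.05 over the 5 comparisons. DESeq2 called 1 of them, the autophagy receptor Sqstm1, lower in STZ TKO than in STZ floxed muscle. Cryab, a small heat shock protein outside the symbol rule, averaged 637 ± 276 CPM in STZ TKO, 485 ± 190 CPM in TKO, 495 ± 105 CPM in STZ floxed and 362 ± 55.2 CPM in floxed libraries (SD, n = 6, 6, 5 and 4), and was not called.

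Markers of other cells and states moved with genotype beside these differences. In bulk muscle, fewer cells of a type and less RNA per cell cannot be told apart. Macrophage markers, with counts for 14 of 14 genes in every group, summed to 307 to 2509 CPM in STZ TKO and 326 to 1996 CPM in TKO libraries, against 216 to 320 CPM in STZ floxed and 188 to 257 CPM in floxed libraries. Of them edgeR called 7 higher in STZ TKO over STZ floxed and 2 in TKO over floxed (4.89% and 0.514% of all tested genes were called). DESeq2 called 11 and 9 higher (7.99% and 2.77% of all tested genes were called). In each of these comparisons 13 of the 14 were higher at an unadjusted p under 0.05 (18.7% and 11.5% of all tested genes were under 0.05). Genes of denervated fibres, with counts for 11 of 11, summed to 114 to 745 CPM in STZ TKO, 105 to 2030 CPM in TKO, 123 to 330 CPM in STZ floxed and 78 to 129 CPM in floxed libraries. None was called by edgeR. In STZ TKO over STZ floxed, 5 were higher and 1 lower at an unadjusted p under 0.05 (18.7% of all tested genes in either direction). DESeq2 called 1 higher there (7.99% of all tested genes were called). In TKO over floxed, 9 were higher at an unadjusted p under 0.05 (11.5% of all tested genes in either direction). DESeq2 called 6 higher there (2.77% of all tested genes were called). TKO library 20, with the highest Bag2, also had the highest denervation sum. Without libraries 4, 15, 16 and 20, Dnajc28, Bag2 and Hspb3 were still called in STZ TKO against STZ floxed muscle. Hsf1 and Sugt1 were not (adjusted p = 0.0698 and 0.135, edgeR). Library 8, with 1067 CPM of macrophage markers, stayed in that fit, so the fit did not separate these markers from genotype. Fibroblast markers (5 of 5 with counts) summed to 674 to 3787 CPM in STZ TKO, 1518 to 6540.0 CPM in TKO, 546 to 1059 CPM in STZ floxed and 1585 to 4463 CPM in floxed libraries. In STZ TKO over STZ floxed edgeR called 1 of the 5, Col3a1, higher (4.89% of all tested genes were called). In STZ floxed over floxed it called 1, Col1a1, lower (1.35% of all tested genes were called). DESeq2 called both genes in both comparisons (7.99% and 3.36% of all tested genes). The 2 comparisons share the STZ floxed libraries. Of the 6 skeletal muscle markers, edgeR called only the oxygen carrier Mb, higher in the first of these comparisons and lower in the second. In each of them 4 of the 6 lay below 0 (46.4% and 48.4% of all tested genes), with medians of -0.10 and -0.26. Endothelial markers (4 of 4 with counts) summed to 156 to 232 CPM in STZ TKO and 195 to 265 CPM in TKO, against 249 to 313 CPM in STZ floxed and 216 to 293 CPM in floxed libraries. In STZ TKO over STZ floxed all 4 had a log2 fold change below 0 (46.4% of all tested genes). For 3 of them the unadjusted p was under 0.05 (18.7% of all tested genes). None was called by edgeR (4.89% of all tested genes), and DESeq2 called 1, Cdh5 (7.99%). Adipocyte markers (4 of 4 with counts) summed to 4.69 to 33.7 CPM in STZ TKO, against 5.27 to 87.7 CPM in STZ floxed libraries. Of these 4, 3 were lower at an unadjusted p under 0.05 (18.7% of all tested genes in either direction). There were 0 calls by edgeR (4.89% of all tested genes) and 2 by DESeq2 (7.99%). All 9 slow fibre markers had a log2 fold change above 0 in that comparison (53.6% of all tested genes). Among them were 0 calls by edgeR or DESeq2 and 0 unadjusted p-values under 0.05. The part of these genes and cells in the chaperone differences was not tested.

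The named genes are shown library by library in the heat map of log2 CPM. In STZ floxed library 17, Hsph1, Hspb8, Hspb1, Hspb7, Hsp90aa1, Dnajb1 and Dnajb2 were high together, while Hspb3 and Dnajc19 were at their lowest. Library 17 also had the highest immediate early sum (672 CPM). Library 8 was high for Hspb3, Hspe1, Dnajc19, Dnaja1 and Hspa8. Removing library 17 alone left 0 calls in STZ floxed over floxed (Hspa1b adjusted p = 0.0533, Bag2 0.101), and Hspb3 was no longer called in STZ TKO over STZ floxed (0.0571). Removing libraries 17 and 18 together left Hspa1b as the 1 call in STZ floxed over floxed and the same 3 calls in STZ TKO over STZ floxed.

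**Figure D4:**
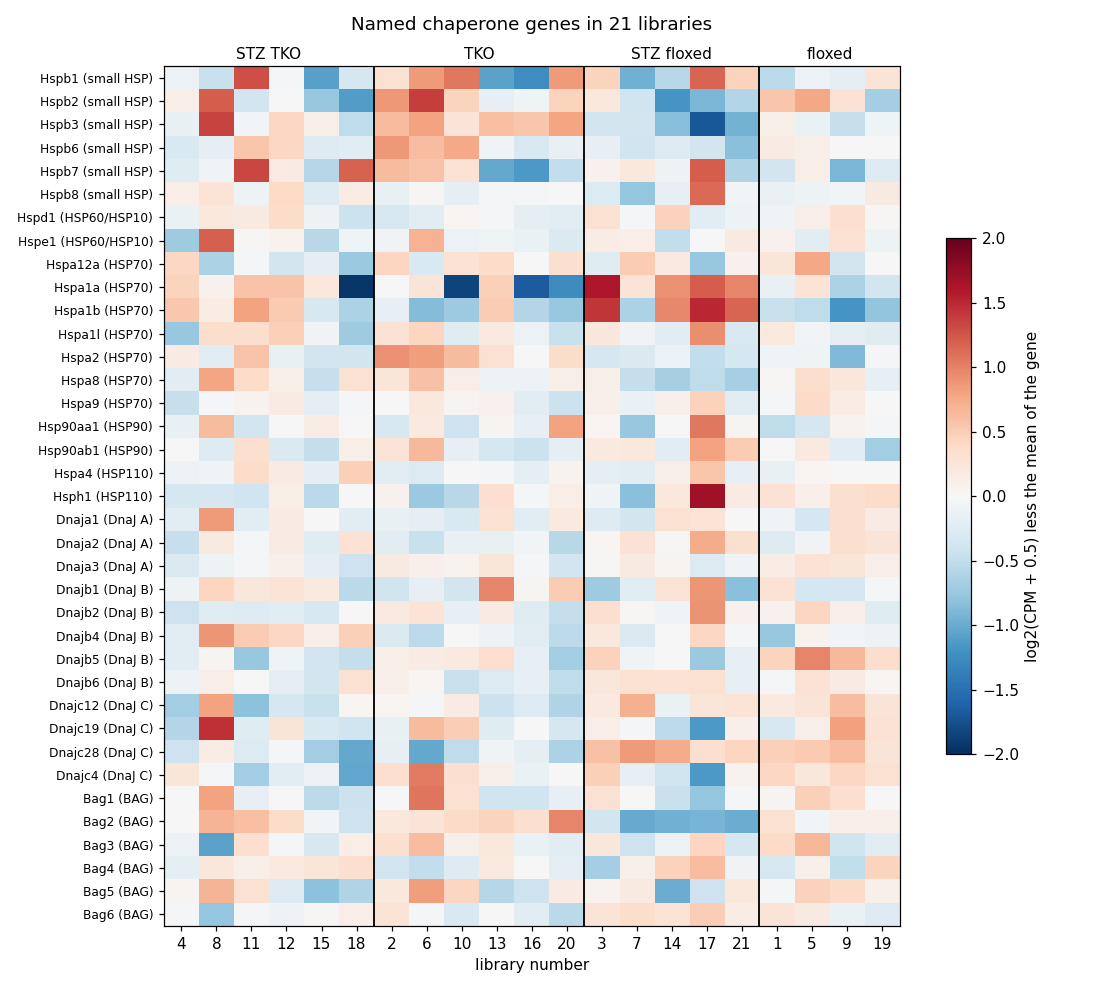
Log2(CPM + 0.5) less the mean of each gene over 21 libraries (colour) for the 37 named chaperone genes (rows) and the libraries of the 4 groups (columns). Bag2 is blue in STZ floxed libraries, Dnajc28 is red in all STZ floxed and floxed libraries, and library 17 holds many dark red cells.

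Likeness of pattern was described for Hspa1b and Hspb1 as Spearman's rho of log2 CPM over the 21 libraries after removal of group means. Depth and RNA quality of a library are shared by its genes. The genes most like Hspa1b were Map3k13 (0.695), Zfp688 (0.673), Dusp8 (0.665), Letm2 (0.651) and Nr2f6 (0.644), and its twin Hspa1a stood at 0.627. The genes most like Hspb1 were Lmcd1 (0.768), Mphosph8 (0.757), Gadd45a (0.747), Rgs4 (0.73) and Mustn1 (0.704). Among the named chaperones the closest to Hspb1 was Hspb7 (0.619).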

How the data were processed

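The authors deposited a table of read counts per Ensembl gene without normalization. The submitters' processing notes name STAR, featureCounts and GRCm38.p4. For tool versions, strandedness and multi-mapped reads, the settings were not given in the sources used. Reads of near-identical or overlapping genes may therefore be shared or lost. GENCODE M21 gave a symbol to 45229 of 46071 identifiers, and genes with no symbol held 0.0478% of the counts. The 76 members and all gene lists were chosen with earlier results of these data known. Libraries were grouped by the labelled genotype and drug. The labels do not say that each library is a separate animal, so p-values measure the spread between libraries.

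Counts were tested with edgeR 4.0.16 in R 4.3.3 (robust quasi-likelihood fit of 4 group means, TMM scaling, filterByExpr, two-sided, Benjamini-Hochberg within each contrast at 0.05). The code was tested on simulated data. CPM is on TMM-adjusted library sizes. Standard errors are the log2 fold change divided by the square root of F. Alternatives were RLE scaling, DESeq2 1.42.0, no filter, the 6 runs of library codes as a block, each library left out, and 2 sets of libraries left out. Chi-square per degree of freedom was at least 8.61 for every pair of libraries of a group, so none matched within sampling noise. Total counts of 2951290 to 7687823 limit precision for low genes such as Hspa1b.

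Named genes were members called in a contrast, a fixed set of classical chaperones, and the 3 highest and 3 lowest fold changes of each contrast among members whose mean log2 CPM was 2 or more.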

Additional observations from a re-analysis of the deposited data

Results flagged for a closer look

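Single libraries stood far from the rest of their group in 21 of 148 groups examined over the 37 named genes, by the ratio of the gap to the nearest library over the range of the group. The rule is set to mark about 1 in 20 groups of normal, independent values. CPM need not be normal and the genes share libraries, so the rate expected here was not measured. Library 8 (STZ TKO) accounted for 7 of them. It was the highest of its group for Bag1 (109 CPM), Dnaja1 (50 CPM), Dnajc19 (46.1 CPM), Hspb2 (62.2 CPM), Hspb3 (53.4 CPM) and Hspe1 (97.4 CPM), and the lowest for Bag6 (109 CPM). Without library 8, Hspb3 was still called in STZ TKO over STZ floxed muscle. Also in STZ TKO muscle, Hspb1 was highest in library 11 (156 CPM), and Hspa1a was lowest in library 18 (0.809 CPM).

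In TKO muscle, library 6 was highest for Bag1 (132 CPM), Dnajc4 (12.5 CPM) and Hspe1 (68.9 CPM), and library 20 for Bag2 (23.4 CPM). In STZ floxed muscle, library 17 was highest for Hspb8 (982 CPM) and Hsph1 (418 CPM), library 3 for Bag2 (8.90 CPM) and Hspa8 (660 CPM), and library 21 was lowest for Dnajb6 (24.8 CPM). In floxed muscle, library 9 was highest for Dnajc12 (22.9 CPM) and lowest for Hspa2 (1.55 CPM), and library 1 was lowest for Hspa4 (155 CPM).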

How the results depend on the processing

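Of 47 gene and comparison pairs tested under every alternative, 1234 values kept their direction and side of the threshold, 27 lost a call, 12 gained one and 1 changed sign. The sign change was Bag2 in STZ TKO over TKO muscle, 0.012 without libraries 4, 15, 16 and 20 against -0.23 with all libraries. The count of called members in TKO against floxed muscle was 1 with DESeq2 and 1 without libraries 17 and 18, against 0. In STZ TKO against TKO muscle it was 1 with DESeq2, against 0. In STZ floxed against floxed muscle it was 1 with no filter, 1 with the run block and 1 without libraries 17 and 18, against 2. In STZ TKO against STZ floxed muscle it was 4 with DESeq2 and with the run block (adding Dnajb12), 4 with no filter (adding Dnajc5g, otherwise filtered out) and 4 without libraries 4, 15, 16 and 20 (adding Hspa8), against 3. With 1 library left out it ranged from 2 to 4 in STZ TKO against STZ floxed, 0 to 1 in TKO against floxed, 0 to 0 in STZ TKO against TKO, 0 to 2 in STZ floxed against floxed, and 0 to 0 for the interaction. Over all genes, calls in STZ TKO against STZ floxed muscle numbered 619, against 1011 with DESeq2 and 1068 with the run block. They numbered 65 in TKO against floxed (351 with DESeq2), 18 in STZ TKO against TKO (111 with DESeq2 and 98 with the run block), 171 in STZ floxed against floxed (425 with DESeq2) and 1 for the interaction (4 with DESeq2). With 1 library left out, the same counts ranged from 380 (without library 21) to 780 in STZ TKO against STZ floxed, 32 (without library 5) to 105 (without library 13) in TKO against floxed, 7 (without library 2, 11 or 13) to 61 (without library 4) in STZ TKO against TKO, 31 (without library 1) to 333 (without library 3) in STZ floxed against floxed, and 0 to 2 for the interaction. The shares of all tested genes set beside the members' counts move with them. The causes were not tested. No paired analysis was possible because each library number occurs once, so no replicate number is shared between groups. The runs of library codes each hold several groups, and the block on them compared libraries within runs, which the labels do not call batches. Low counts of Hspa1a, Hspa1b and Hspa2 limit what can be seen.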
